A study of Mus musculus and Rattus norvegicus with 60 samples.

Results

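The hypertrophic zone (HZ) of the growth plate was compared between the proximal phalanx of the forelimb and the proximal tibia of the hindlimb in mice 1 week old. The comparison holds 10 libraries, chosen by their labels (mouse, HZ, 1 week, phalanx or tibia), of 60 samples in the series, of which 59 have a column of values. Both groups, the phalanx HZ (5 libraries) and the tibia HZ (5 libraries), came from male C57BL/6 mice, with no agent and no altered allele named for either. Besides these, the PZ (proliferative zone) of both bones at 1 week and both zones of the tibia at 4 weeks, all from the same strain of mouse, entered the estimate of the spread, and the HZ of phalanx and tibia of Sprague Dawley rats 1 week old gave a second species. The zone was cut by laser from frozen sections, and the RNA of each animal was amplified and sequenced on its own, so that the replicate is the animal. The phalanx was taken from the forelimb and the tibia from the hindlimb, so that the bone and the limb cannot be told apart. A captured area is a bulk sample of chondrocytes and of whatever else lay within the outline. In such samples fewer cells of a type and less RNA per cell cannot be told apart.

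Chondrocytes of the growth plate divide in columns, leave the cell cycle and enlarge into hypertrophic chondrocytes, which secrete type X collagen, mineralize their matrix and express the signals Ihh and Vegfa. At the lower border of the zone vessels, osteoclasts and osteoblasts replace the cartilage with bone. The position of a bone in the limb is set in the embryo by transcription factors, among them the Hox genes, Tbx5 in the forelimb, Pitx1 in the hindlimb and Shox2 in the proximal limb.

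The phalanx HZ libraries held 25091556 to 31414778 reads in genes and the tibia HZ libraries 24968350 to 30371805 reads. Rn45s, the precursor of ribosomal RNA, took 46.5% to 71.2% of them in the phalanx HZ and 65.8% to 80.8% in the tibia HZ, which left 8795180 to 15191000 reads in the phalanx HZ and 5240960 to 10397200 reads in the tibia HZ for all other genes. Phalanx HZ replicate 5 stood apart from the 4 other phalanx libraries in genes of younger cartilage, such as Ucma (2062 normalized counts, against 5 to 47) and Prelp (29103, against 458 to 1520), both markers of the zones above the HZ, and it had the lowest summed level of osteoclast genes of its group. Counts without this library are given beside many of the lists that it moved, though not all. Where genes overlap, reads may be shared between them, since the sources used here do not say whether strand was used in counting. This applies to Shox2 with Rsrc1, Col10a1 with Nt5dc1, Fgfr2 with Ctbp2, Fgfr1 with Gm16159, Igfbp7 with Polr2b, Ckm with A930016O22Rik, Pdgfra with Mir7025, Npr3 with Gm5144, Bmp6 with Txndc5, Has2 with Has2os, Gli1 with Arhgap9, Igf2 with Igf2os, Hoxa11 with Hoxa11os, Irs2 with 9530052E02Rik, Mef2d with 1700113A16Rik and Ncam1 with Gm11149. The captures carried markers of their zone, since Col10a1 (38567 to 62078 normalized counts in the phalanx HZ and 112547 to 416302 in the tibia HZ), Mmp13 and Spp1 were among their abundant transcripts. Markers of bone cells were abundant too. Col1a1 reached 35416 to 401597 in the phalanx HZ and 43181 to 125986 in the tibia HZ, and Acp5 28203 to 66851 and 7075 to 11805. These levels do not give the share of each cell type.

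Differences were tested with limma on log2(normalized count + 1) over 15213 genes, with p-values adjusted by the Benjamini-Hochberg method over all of them. Calls required more than a 2-fold change together with an adjusted p below 0.05. In the phalanx HZ 1024 genes were called higher (6.73% of genes tested) and 776 lower (5.10%) than in the tibia HZ. All 5 phalanx libraries lay above all 5 tibia libraries for 440 genes (2.89%) and below them for 590 genes (3.88%), and 316 of the genes called higher and 387 of those called lower were separated in this way. The spread came from 6 mouse groups fitted together, whereas the HZ groups were the most variable of them, with a median SD over genes of 0.612 in the phalanx HZ and 0.791 in the tibia HZ on the log2 scale, against 0.369 in the PZ of the tibia at the same age. When the 10 libraries were fitted alone, 319 of the genes called higher and 479 of those called lower were still called. The calls were higher in the phalanx in 56.9% of cases, in 45.8% after quantile normalization and in 84.1% with counts scaled to the reads outside Rn45s, a scaling that moved the median log2 fold change of all genes to 0.51, against 0.13 as deposited. The split of calls into higher and lower thus depended on the scaling, and small changes are read here against that median.

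**Figure D1:**
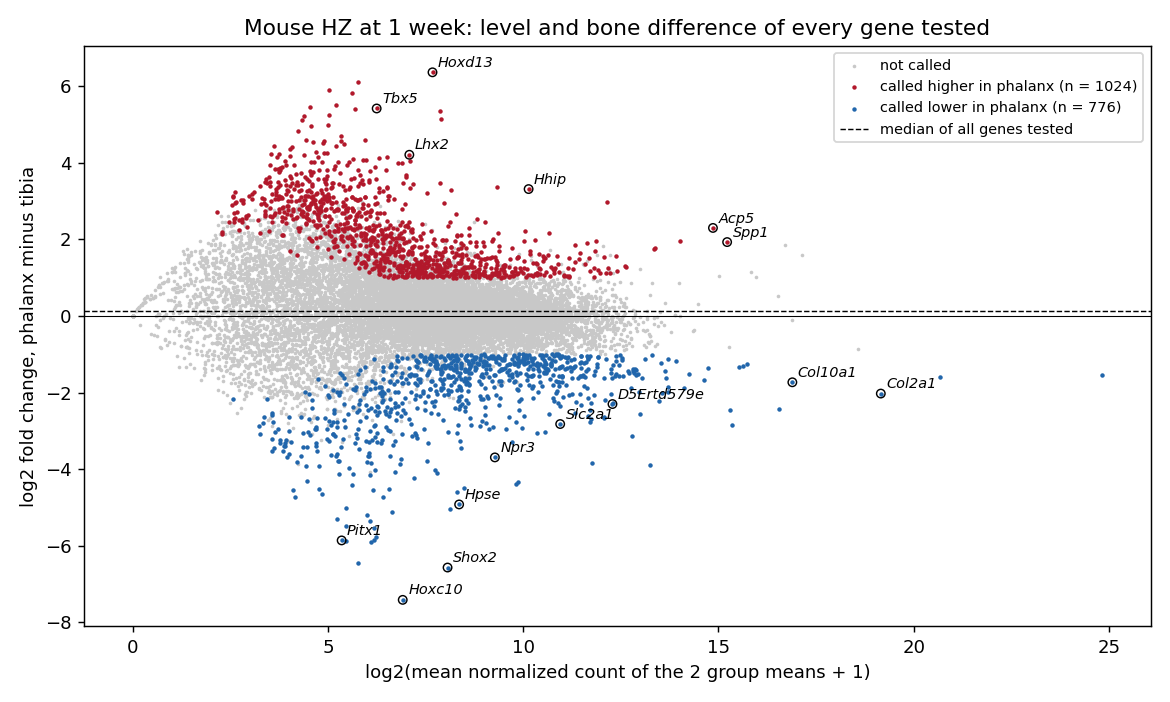
Log2 fold change (phalanx minus tibia HZ, vertical axis) of every gene tested against its level, the log2 of the mean normalized count plus 1 (horizontal axis). Red points are the 1024 genes called higher in the phalanx HZ, blue points the 776 called lower, grey points were not called, and the dashed line is the median of all genes (0.13). Shox2 and Hoxc10 lie at the lower edge and Hoxd13 at the upper edge, while Acp5, Spp1, Col10a1 and Col2a1 are called genes of very high level.

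The largest differences lay in genes that pattern the limb. Shox2, Pitx1 and all 6 Hoxc genes tested were at or near 0 in every phalanx library and expressed in every tibia library, while Tbx5, Hoxd10, Hoxd11, Hoxd13, Hoxa11 and Hoxa13 were higher in the phalanx HZ. Shox2 (GRCm38, chromosome 3, 66971727 to 66981771) encodes a homeodomain factor of the proximal limb. It measured 3, 7, 2, 6 and 4 normalized counts in the phalanx HZ and 312, 467, 1066, 357 and 441 in the tibia HZ. The log2 fold change was -6.57, with a standard error (given after ± from here on) of 0.57 and an adjusted p of 1.6e-09. No phalanx library came near a tibia library.

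Hoxc10 (chromosome 15, 102966796 to 102971893), a gene of the Hoxc cluster, had 0, 0, 0, 2 and 0 normalized counts in the phalanx HZ, against 432, 220, 207, 109 and 226 in the tibia HZ. The phalanx libraries held 2 reads of it in all, and the ratio of the summed levels was 683-fold (95% counting interval 189 to 5642). Hoxc9 had no read in any phalanx library and 85, 69, 260, 35 and 87 normalized counts in the tibia HZ, and was thus at least 204-fold lower in the phalanx HZ against a floor of 3 reads over the group. These bounds and intervals cover counting error only, and amplified reads are not independent molecules. Hoxc4, Hoxc5, Hoxc6 and Hoxc8 fell too (fitted log2 fold changes of -5.30, -5.78, -5.84 and -4.74), so that 6 of 6 Hoxc genes tested were lower, with a median of -5.81 beside 0.13 for all genes. Members of lists are counted from here on by the adjusted p alone (below 0.05), a rule by which 9.77% of all genes were higher and 9.20% lower. Pitx1 (chromosome 13, 55825051 to 55836192), the factor that specifies the hindlimb, was listed at 0, 4, 0, 0 and 0 in the phalanx HZ and at 80, 63, 80, 71 and 100 in the tibia HZ (-5.86 ± 0.57, adjusted p = 3.8e-09).

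Hoxd13 (chromosome 2, 74668310 to 74671599), the Hox gene of the digits, ran the other way. It measured 292, 457, 380, 87 and 787 normalized counts in the phalanx HZ and 5, 0, 23, 0 and 5 in the tibia HZ (log2 fold change 6.36 ± 0.81, adjusted p = 5.7e-07). Hoxa13, its counterpart in the Hoxa cluster, had 107, 77, 7, 28 and 87 normalized counts in the phalanx HZ and 0, 0, 0, 0 and 4 in the tibia HZ, where 3 reads were counted in all, a ratio of 53.1-fold (95% counting interval 18.2 to 257.6). Both genes overlapped in no library between the bones. Hoxd11 had no read in the tibia HZ and was at least 88.2-fold higher in the phalanx HZ, and Hoxd10 and Hoxa11 were also higher (fitted log2 fold changes of 4.21 and 4.56). Of the Hoxd cluster 3 of 5 genes tested were higher and none lower (median 4.21), of the Hoxa cluster 3 of 11 were higher and none lower (median 0.77), and of the Hoxb cluster 0 of 7 passed in either direction. The third Hoxa gene was Hoxa6 (2.48), whose libraries overlapped and whose call ended when phalanx replicate 1, 2, 3 or 5 or tibia replicate 1, 2, 3 or 4 was left out (adjusted p of 0.057 to 0.087) and in the fit of the 10 libraries alone (adjusted p = 0.26).

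Tbx5 (chromosome 5, 119832668 to 119885219), the T-box factor of the forelimb, measured 41, 28, 101, 344 and 221 normalized counts in the phalanx HZ and 11, 0, 5, 0 and 0 in the tibia HZ (5.42 ± 0.80, adjusted p = 7.3e-06). Its lowest phalanx library stood above its highest tibia library. Among 7 limb identity factors tested Tbx5 was the only one higher, and Pitx1 and Tbx18 were lower. The counts were 2 higher and 2 lower without phalanx replicate 5, and 3 and 1 with counts scaled to the reads outside Rn45s. Tbx4 did not pass (2.37, adjusted p = 0.075). Tbx18 (-2.37) overlapped between the bones, did not pass in the 10 libraries alone (adjusted p = 0.20), and its call ended without phalanx replicate 4 (-1.34, adjusted p = 0.15) or without tibia replicate 2, 4 or 5 (adjusted p of 0.056 to 0.087). Of 6 proximal limb factors 2 were lower, Shox2 and Meis1, and none was higher. Meis1 (-1.86), a TALE homeodomain partner of Hox proteins, overlapped as well, and its call ended without phalanx replicate 1 or 3 or tibia replicate 2 or 5 (adjusted p of 0.059 to 0.078) and in the 10 libraries alone (adjusted p = 0.20).

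Of 16 other homeobox genes tested 5 were higher in the phalanx HZ and 1 lower, with a median of 1.36. Lhx2, a LIM homeodomain factor of the growing limb bud, had 246, 113, 391, 154 and 287 normalized counts in the phalanx HZ and 101, 39, 0, 14 and 3 in the tibia HZ (4.21 ± 0.92, adjusted p = 0.0011). The 2 groups did not overlap, although tibia replicate 1 came close to phalanx replicate 2. Irx1 and Irx2, neighbouring Iroquois genes, had no read in any tibia library and were at least 20.4-fold and 29.3-fold higher in the phalanx HZ. Dlx5, a Distal-less factor that also acts in osteoblasts and hypertrophic chondrocytes, was higher at much greater levels (749 to 1119 normalized counts in the phalanx HZ and 217 to 501 in the tibia HZ, 1.46 ± 0.19). Prdm6, the gene of a histone methyltransferase family member, was listed at 84, 66, 146, 33 and 202 in the phalanx HZ and at 0, 0, 0, 0 and 3 in the tibia HZ (2 reads), a ratio of 129.7-fold (95% counting interval 35.9 to 1071). Eya1, a transcriptional coactivator that partners homeobox proteins, was lower (0 to 2 in the phalanx HZ and 32 to 289 in the tibia HZ, -5.54 ± 0.62).

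**Figure D2:**
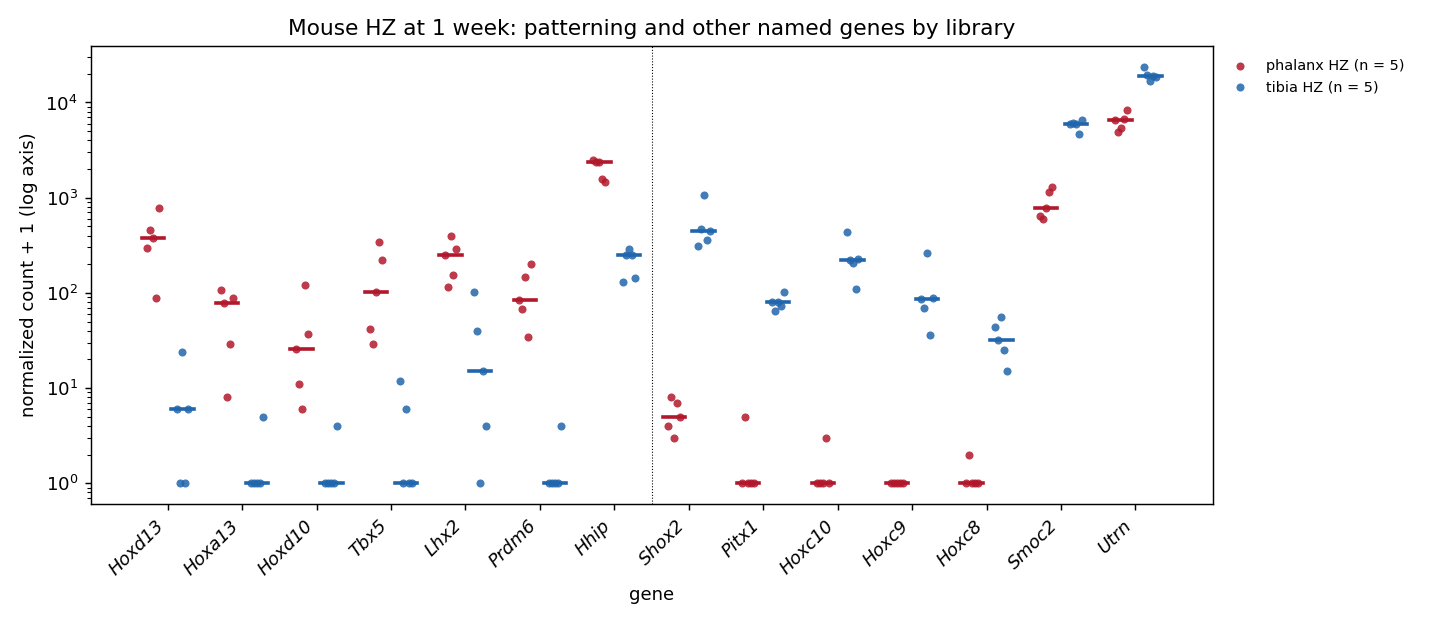
Normalized count plus 1 (log axis) of 14 named genes in each library, with the 5 phalanx HZ libraries in red left of the 5 tibia HZ libraries in blue and a bar at each median. The genes left of the dotted line were higher in the phalanx HZ, from Hoxd13 to Hhip, and those right of it lower, from Shox2 to Utrn, and no phalanx library overlapped a tibia library for any of the 14.

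Genes of cartilage matrix and many chondrocyte genes were lower in the phalanx HZ. Of 26 cartilage matrix genes tested 16 were lower and 1 higher, with a median log2 fold change of -1.63. Of 20 hypertrophic chondrocyte genes 10 were lower and 3 higher (median -0.57). Of 16 proliferative chondrocyte genes 7 were lower and 1 higher (median -0.84), or 2 and 0 with the 10 libraries alone. The lists overlap, so their counts are not separate results. Hapln1, Matn1, Col2a1, Matn3 and Epyc, lower in the proliferative list, are also cartilage matrix members, as is Col10a1 of the hypertrophic list. The study used Gdf10, Prelp and Bmp7 as markers of the PZ. Among them Bmp7 was the proliferative gene that was higher (1.56), and Gdf10 and Prelp did not pass. Col10a1 (chromosome 10, 34389981 to 34397085), the collagen that defines the zone, measured 62078, 40838, 38567, 57985 and 59078 normalized counts in the phalanx HZ, against 147584, 149567, 131425, 112547 and 416302 in the tibia HZ (-1.73 ± 0.52, adjusted p = 0.022). The groups did not overlap, and the call ended without phalanx replicate 3 (adjusted p = 0.052) or without tibia replicate 5, its highest library (-1.41, adjusted p = 0.065), while the 10 libraries alone gave an adjusted p of 0.013. Its promoter is shown because it belongs to the gene that defines the zone. The window runs from 250 bases before to 50 after the start that RefSeq gives on GRCm38.p6 (chr10:34389731-34390030, plus strand), and the capitals mark TATAAA, which begins 32 bases before the start. This hexamer was found on either strand in 15.7% of genes with such a window and in 3 of 18 cartilage matrix genes with one. A match is a description of the letters only.
Col10a1: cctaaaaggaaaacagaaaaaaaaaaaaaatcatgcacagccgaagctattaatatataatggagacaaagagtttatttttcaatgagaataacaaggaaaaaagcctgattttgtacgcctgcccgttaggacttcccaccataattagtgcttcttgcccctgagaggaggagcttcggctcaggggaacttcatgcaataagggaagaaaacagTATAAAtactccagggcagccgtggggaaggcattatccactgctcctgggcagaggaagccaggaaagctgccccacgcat

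The signals of the hypertrophic cells were lower in the phalanx HZ as well. Ihh, the hedgehog ligand of prehypertrophic and early hypertrophic cells, had 997, 257, 331, 1368 and 706 normalized counts in the phalanx HZ and 3379, 3128, 3317, 2185 and 3919 in the tibia HZ (-2.37 ± 0.34, adjusted p = 1.2e-05). Vegfa, which attracts vessels, had 3254, 2596, 2751, 3963 and 2715 in the phalanx HZ and 7893, 11773, 8451, 10818 and 6483 in the tibia HZ (-1.56 ± 0.22, adjusted p = 6.4e-06). Alpl, the alkaline phosphatase of mineralization, had 6843, 5285, 6769, 8331 and 5656 in the phalanx HZ and 13701, 12557, 12261, 10112 and 18580 in the tibia HZ (-1.02 ± 0.18, adjusted p = 0.00015). Every phalanx library lay below every tibia library for each of the 3. Bmp2, a Bmp ligand of the HZ, fell too (-1.41 ± 0.36).

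Some hypertrophic chondrocyte genes, among them Mmp13, Spp1 and Ank, were not lower. Phospho1 was lower (-1.35, adjusted p = 0.0011), as were Alpl and Vegfa above. Mmp13, the collagenase of the last hypertrophic cells, measured 100334, 93090, 74396, 85334 and 51243 normalized counts in the phalanx HZ and 15527, 78066, 33428, 66481 and 34386 in the tibia HZ, which overlap (1.01 ± 0.64, adjusted p = 0.29). Spp1, the osteopontin gene, measured 84367, 61109, 49631, 62657 and 45754 in the phalanx HZ and 12146, 15947, 15663, 17956 and 16820 in the tibia HZ (1.93 ± 0.54, adjusted p = 0.014), with no overlap. Ank, a transporter that exports pyrophosphate, was higher (1.38 ± 0.25, adjusted p = 0.00013). Spp1 and Mmp13 are also expressed by cells of bone, whose markers are given below.

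Matrix genes of cartilage showed the place of phalanx replicate 5. Acan, the core protein of aggrecan, measured 28734, 13476, 16099, 32089 and 85378 normalized counts in the phalanx HZ and 161205, 137071, 148473, 103642 and 225205 in the tibia HZ (-2.43 ± 0.33, adjusted p = 9.8e-06). Col2a1, the type II collagen gene, measured 232226, 93401, 94386, 213110 and 840779 in the phalanx HZ and 978267, 619154, 939116, 580100 and 1254087 in the tibia HZ (-2.03 ± 0.38, adjusted p = 0.0005). Sox9, the factor that drives both, measured 1398, 609, 422, 1618 and 4584 in the phalanx HZ and 4976, 2927, 6556, 3073 and 2129 in the tibia HZ (-1.57 ± 0.42, adjusted p = 0.010). Only Acan separated the groups, since replicate 5 of the phalanx reached the tibia range for Col2a1 and Sox9. With the 10 libraries alone neither Col2a1 (adjusted p = 0.094) nor Sox9 (adjusted p = 0.19) passed, and 4 of the 26 cartilage matrix genes were lower in that fit. Without phalanx replicate 5, 17 of the 26 were lower in the 6-group fit. Prelp (1520, 458, 512, 1054 and 29103 in the phalanx HZ, against 3597, 602, 5297, 1828 and 1356 in the tibia HZ) and Ucma (47, 6, 5, 34 and 2062, against 155, 8, 78, 71 and 3) did not pass. The exception among the cartilage matrix genes was Vit, the gene of vitrin (106 to 699 in the phalanx HZ and 5 to 53 in the tibia HZ, 3.68 ± 0.47, adjusted p = 8.6e-07).

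**Figure D3:**
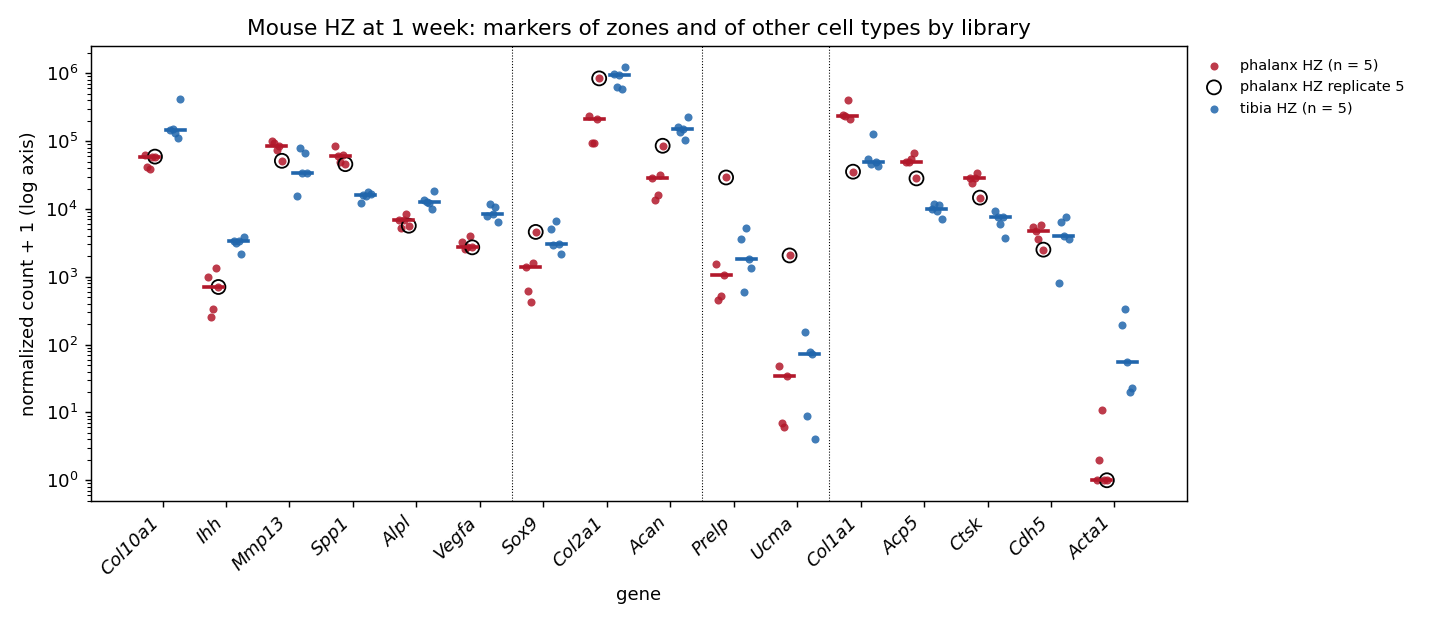
Normalized count plus 1 (log axis) of 16 marker genes in each library, phalanx HZ in red left of tibia HZ in blue, with bars at the medians and phalanx HZ replicate 5 circled. From left to right the dotted lines divide genes of hypertrophic chondrocytes (Col10a1 to Vegfa), of chondrocytes in general (Sox9 to Acan), of the proliferative zone (Prelp and Ucma) and of other cells (Col1a1 to Acta1). Phalanx replicate 5 is the highest phalanx library from Sox9 to Ucma and the lowest for Col1a1, Acp5, Ctsk and Cdh5.

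Of 25 chondrocyte transcription factors 7 were lower and 4 higher (median -0.03), a balance that became 4 lower and 12 higher with counts scaled to the reads outside Rn45s, and 11 lower and 7 higher without phalanx replicate 5. Mef2d, a MADS-box factor of hypertrophic chondrocytes, fell to 2019 to 3474 normalized counts in the phalanx HZ, against 6200 to 9701 in the tibia HZ (-1.52 ± 0.15, adjusted p = 9.2e-09), and its values did not overlap. Hdac5, a histone deacetylase that binds Mef2 factors, was lower (-1.16), as was Foxa3, a forkhead factor (-3.17). Pth1r, the receptor of PTHrP, was also lower (-1.52 ± 0.23, adjusted p = 2.6e-05).

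Enzymes that build or cut the matrix changed in both directions. Of 40 genes of sulfated glycosaminoglycans and hyaluronan 10 were lower and 6 higher (median -0.24). This became 5 lower and 10 higher with counts scaled to the reads outside Rn45s, and 14 lower and 6 higher without phalanx replicate 5. Has2, the main hyaluronan synthase of chondrocytes, had 277, 112, 91, 256 and 74 normalized counts in the phalanx HZ, against 2333, 1311, 1881, 1422 and 622 in the tibia HZ (-3.30 ± 0.31, adjusted p = 3.9e-09). Pxylp1, a phosphatase of the proteoglycan linker, fell too (-2.74 ± 0.27), whereas the hyaluronidase gene Hyal2 rose (2.12 ± 0.41). Hpse, the heparanase, was among the largest decreases of all, with 7, 5, 17, 58 and 25 in the phalanx HZ and 965, 419, 303, 231 and 1241 in the tibia HZ (-4.92 ± 0.56, adjusted p = 8.1e-08). Loxl4, a lysyl oxidase that cross-links collagen, had 13815, 7152, 8942, 15418 and 17850 in the phalanx HZ and 72003, 66865, 48659, 51943 and 99509 in the tibia HZ (-2.46 ± 0.34, adjusted p = 1.3e-05). None of the 3 overlapped between the bones. Among 23 genes of collagen hydroxylation and cross-linking 5 were higher and 5 lower (median 0.15). Serpinh1, the collagen chaperone, was among the higher (0.89 ± 0.12).

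Of 25 matrix proteases and their inhibitors 10 were higher in the phalanx HZ and 3 lower (median 0.84). Timp2, an inhibitor of metalloproteinases, measured 3620 to 6440 normalized counts in the phalanx HZ and 1738 to 3539 in the tibia HZ (1.13 ± 0.18). Adamts9, a protease that cleaves versican and aggrecan, was higher (1.57 ± 0.33), as was the serine protease gene Htra1 (1.69 ± 0.36). Adamts4, an aggrecanase, did not pass (97 to 570 in the phalanx HZ and 229 to 565 in the tibia HZ, -0.21 ± 0.60, adjusted p = 0.85), and its sign turned without phalanx replicate 5 (0.18). Of 12 small leucine-rich proteoglycans 6 were higher and 1 lower (median 0.73), led by Bgn, the biglycan gene (0.86 ± 0.13), and Lum, the lumican gene (1.27 ± 0.27). Of 14 collagens of fibrous tissue and bone 3 were higher and 2 lower (median 0.70), or 7 and 3 without phalanx replicate 5. They included Col12a1 (1.27 ± 0.23) on the higher side and Col6a3 (-1.44 ± 0.20) on the lower.

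Markers of other cells moved with the bone, and their part in the differences above was not tested. Of 16 osteoclast genes 7 were higher and none lower (median 1.03), and their summed level was 105207 to 229779 normalized counts in the phalanx HZ and 48449 to 92009 in the tibia HZ. No marker was at 0 in a phalanx library, and Calcr, the calcitonin receptor, was at 0 in 3 tibia libraries. Acp5, the tartrate-resistant acid phosphatase of osteoclasts, had 49441, 48768, 54524, 66851 and 28203 in the phalanx HZ and 9941, 11805, 9179, 11300 and 7075 in the tibia HZ (2.30 ± 0.60, adjusted p = 0.0084). Ctsk, the collagen-degrading cathepsin K, had 28976, 24010, 28992, 33808 and 14692 in the phalanx HZ and 9320, 7488, 6032, 7480 and 3713 in the tibia HZ (1.95 ± 0.61, adjusted p = 0.028). Both separated the groups, and with the 10 libraries alone their adjusted p was 7.8e-07 and 0.00014. In the 6-group fit the call of Ctsk ended when phalanx replicate 1, 3 or 4 or tibia replicate 5 was left out (adjusted p of 0.055 to 0.065). Siglec15, a lectin of osteoclasts, was among the largest increases (4.08 ± 0.89). Of 25 macrophage and antigen presentation genes 4 were higher and none lower (9 and 1 without phalanx replicate 5), with a summed level of 11189 to 23177 in the phalanx HZ and 6834 to 9634 in the tibia HZ.

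Of 19 osteoblast and mineralization genes 6 were higher and 2 lower (median 1.37), or 9 and 1 with the 10 libraries alone and 10 and 2 without phalanx replicate 5, and their summed level was 234511 to 989288 normalized counts in the phalanx HZ and 205607 to 397514 in the tibia HZ. Mepe, an osteocyte matrix protein gene (85 to 237 in the phalanx HZ and 0 to 76 in the tibia HZ, 3.82 ± 0.90), and Lrrc15 (51 to 165 and 0 to 11, 5.41 ± 0.96) were among the higher. Col1a1, the type I collagen gene, measured 239397, 231993, 401597, 209719 and 35416 in the phalanx HZ and 55254, 45710, 125986, 48674 and 43181 in the tibia HZ. Phalanx replicate 5 fell below all tibia libraries for it, and the difference did not pass (1.59 ± 0.79, adjusted p = 0.17). Of 21 genes of perichondrium, tendon and the joint surface 7 were higher and none lower (median 0.85, summed level 49281 to 434418 in the phalanx HZ and 50671 to 141281 in the tibia HZ), with Pdgfra, the receptor of fibroblastic cells, at 1.28 ± 0.31.

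Of 19 endothelial genes 1 was higher and none lower (median 0.25), and Cdh5, the cadherin of endothelium, had 5476, 4769, 3580, 5821 and 2510 normalized counts in the phalanx HZ and 821, 6394, 3925, 7639 and 3648 in the tibia HZ, which overlap (0.25 ± 0.62, adjusted p = 0.82). Counted singly, skeletal muscle genes ran toward the tibia, with 5 of 27 lower and none higher (median -1.34). Their summed level did not follow. It overlapped (2743 to 7011 in the phalanx HZ and 2503 to 13525 in the tibia HZ), and its median was higher in the phalanx HZ (5334, against 3443). Acta1, the skeletal actin, had 0, 1, 10, 0 and 0 in the phalanx HZ and 192, 331, 55, 19 and 22 in the tibia HZ (-5.21 ± 1.56, adjusted p = 0.018). Xirp2, a gene of muscle attachment sites, fell by 5.05 ± 0.95 on the log2 scale. Ckm, the muscle creatine kinase, had no read in the phalanx HZ and was 1 of 3 muscle genes at 0 in every phalanx library. Of 13 neutrophil granule genes 2 were lower and none higher (median -1.37), and none passed in either direction without phalanx replicate 5 or with the 10 libraries alone. Mpo, their myeloperoxidase, had 8, 726, 111, 0 and 23 in the phalanx HZ and 6141, 346, 239, 71 and 1612 in the tibia HZ, with tibia replicate 1 far above the rest. Its call ended without that library (-3.47, adjusted p = 0.10), without tibia replicate 5 or without phalanx replicate 1, 4 or 5 (adjusted p of 0.051 to 0.11). Of 15 B lymphocyte genes 1 was lower and none higher (1 and 2 without phalanx replicate 5), and of 8 erythroid genes 1 was higher.

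Signaling genes were described by pathway. Hedgehog signaling runs from the ligand Ihh to the receptor Ptch1 and the factor Gli1, which are also its targets, while Hhip binds the ligand and limits its reach. Of 21 genes of the hedgehog and PTHrP axis 5 were higher and 6 lower (median 0.11), or 6 and 8 without phalanx replicate 5. The ligand was lower and the targets were higher in the phalanx HZ. Hhip (chromosome 8, 79965851 to 80058006) had 2473, 2350, 2362, 1582 and 1444 normalized counts in the phalanx HZ and 128, 246, 285, 248 and 142 in the tibia HZ (3.31 ± 0.29, adjusted p = 6e-10). Its lowest phalanx library was above its highest tibia library. Ptch1 had 8696, 6835, 7263, 7375 and 14263 in the phalanx HZ and 3133, 4199, 2621, 3680 and 3744 in the tibia HZ (1.32 ± 0.19, adjusted p = 1.2e-05). Gli1 had 638, 423, 561, 477 and 1715 in the phalanx HZ and 139, 319, 239, 350 and 200 in the tibia HZ (1.47 ± 0.30, adjusted p = 0.00067). Phalanx replicate 5 was the highest for both targets, and the 4 other phalanx libraries also lay above all tibia libraries. Scube3, a secreted protein of the family that releases hedgehog ligands, was lower (-2.25 ± 0.27).

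Bmp ligands promote hypertrophy, and secreted antagonists bind them outside the cell. Of 18 Bmp and Gdf ligands 2 were higher and 2 lower (median 0.04). Bmp6, a ligand of hypertrophic cells, had 944, 320, 510, 849 and 1151 normalized counts in the phalanx HZ and 4485, 2963, 3785, 2584 and 7856 in the tibia HZ (-2.54 ± 0.47, adjusted p = 0.00036), without overlap. Bmp3, a ligand that opposes other Bmps, had 1035, 811, 982, 798 and 407 in the phalanx HZ and 8, 230, 402, 205 and 324 in the tibia HZ (2.44 ± 0.79, adjusted p = 0.031), groups that met at 407 and 402. The call of Bmp3 ended without tibia replicate 1 (1.45, adjusted p = 0.077), without phalanx replicate 1, 2, 3 or 4 (adjusted p of 0.051 to 0.062) and in the 10 libraries alone (adjusted p = 0.17).

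Of 19 Bmp antagonists 5 were higher and 4 lower (median 0.19). Smoc2 (chromosome 17, 14279506 to 14404790), a secreted protein of the matrix that binds calcium, was among the 5 decreases with the smallest adjusted p. It had 638, 592, 770, 1152 and 1289 normalized counts in the phalanx HZ and 5973, 6065, 5924, 4634 and 6592 in the tibia HZ (-2.78 ± 0.19, adjusted p = 1.9e-12). Sostdc1 and Sost, 2 related secreted antagonists of Bmp and Wnt signals, had no read in the tibia HZ and were at least 51.1-fold and 27.6-fold higher in the phalanx HZ. Bmper, a binding protein of Bmps, had 124, 156, 533, 351 and 134 in the phalanx HZ and 117, 106, 32, 12 and 65 in the tibia HZ (2.09 ± 0.58, adjusted p = 0.011), which did not pass in the 10 libraries alone (adjusted p = 0.051). Among 18 receptors, Smads and response genes 3 were higher, including Id3 (1.16 ± 0.24), a target of Bmp signaling, and 2 lower, the inhibitory Smad7 (-1.10 ± 0.26) and Smad9 (-1.53 ± 0.27). Of 19 Tgf-beta genes 4 were higher and 5 lower (median -0.02), or 9 and 3 with counts scaled to the reads outside Rn45s. The receptor Tgfbr2 was higher (1.25 ± 0.16), and the ligand Tgfb3 was lower (-1.20 ± 0.23).

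Wnt genes were split by role. Of 10 ligands and genes of ligand secretion 2 were lower and 2 higher (median 0.41). Wnt5b, a noncanonical ligand of chondrocytes, had 374, 202, 212, 547 and 718 normalized counts in the phalanx HZ and 1555, 1130, 1144, 787 and 1297 in the tibia HZ (-1.67 ± 0.28, adjusted p = 4.5e-05), without overlap. Wnt4 (0.36 ± 0.31, adjusted p = 0.46) and Wnt5a (-0.30 ± 0.35, adjusted p = 0.59) did not pass. Of 16 Wnt antagonists 4 were higher and 1 lower (median 0.43), or 6 and 1 without phalanx replicate 5. The lower was Frzb, a decoy receptor made by cartilage (-1.82 ± 0.40), and Notum, an enzyme that inactivates ligands, was among the higher (4.44 ± 1.09). Wif1, a secreted inhibitor, had 189 to 738 in the phalanx HZ and 160 to 270 in the tibia HZ (1.25 ± 0.55, adjusted p = 0.11) and passed without phalanx replicate 5 (1.58, adjusted p = 0.040). Dkk3 did not pass (-0.46 ± 0.88, adjusted p = 0.77), nor did it without that library (0.09).

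Of 28 Wnt receptors and response genes 9 were higher and 4 lower (median 0.39), or 6 and 6 without phalanx replicate 5. Axin2, the common readout of canonical Wnt signals, had 127, 133, 126, 236 and 269 normalized counts in the phalanx HZ and 1285, 437, 857, 645 and 649 in the tibia HZ (-2.10 ± 0.30, adjusted p = 5.3e-06), and Tcf7l2, a factor of the same signal, also fell (-1.40 ± 0.17). Other genes of the list that are not receptors were higher, namely Tcf7 (1.08, adjusted p = 0.029) and Nkd1 (2.03, adjusted p = 0.036). Response genes thus did not all fall. The higher group also held Lgr4, a receptor of R-spondins (1.07 ± 0.17), Rspo3, an R-spondin (1.91 ± 0.31), and several Frizzled receptors. Of these Fzd9 (2 to 73 in the phalanx HZ and 0 to 5 in the tibia HZ, 2.23 ± 0.76, adjusted p = 0.036) lost its call without phalanx replicate 5 (1.49, adjusted p = 0.14), without phalanx replicate 2 or tibia replicate 1, 2 or 5 (adjusted p of 0.054 to 0.081) and in the 10 libraries alone (adjusted p = 0.27). Of 18 Notch genes 1 was higher and none lower. Epha3, an ephrin receptor, did not pass (1.22 ± 0.57, adjusted p = 0.13), and Panx2, a pannexin channel, was lower (0 to 23 in the phalanx HZ and 28 to 163 in the tibia HZ, -4.14 ± 0.77, adjusted p = 0.00019).

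C-type natriuretic peptide lengthens bones through its receptor Npr2 and the kinase Prkg2, and Npr3 clears the peptide. None of 7 genes of the pathway was higher and 5 were lower (median -1.55). Npr3 (chromosome 15, 11839896 to 11907287) had 54, 92, 50, 141 and 129 normalized counts in the phalanx HZ and 928, 1278, 1093, 839 and 1581 in the tibia HZ (-3.69 ± 0.68, adjusted p = 0.00015). No library overlapped. Prkg2 (-1.87 ± 0.29), Prkg1, the gene of a related kinase (-2.03 ± 0.33), and Furin, the protease that processes the peptide precursor (-1.55 ± 0.17), fell too. Of 18 genes of Fgf signaling 1 was higher, the receptor Fgfr2 (1.18 ± 0.24), and 2 were lower. The lower were Fgfr3, the receptor that restrains chondrocytes (-2.06 ± 0.37, adjusted p of 0.067 with the 10 libraries alone), and Fgfr1 of hypertrophic cells (-0.65 ± 0.17). Fgfr1 did not pass after quantile normalization (-0.29) or with counts scaled to the reads outside Rn45s (-0.26).

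Of 22 genes of the Igf system 3 were higher and 3 lower (median 0.42), or 5 and 4 without phalanx replicate 5. Irs2, an adaptor of the insulin and Igf receptors, had 210, 184, 215, 235 and 462 normalized counts in the phalanx HZ and 1488, 1039, 1073, 909 and 1006 in the tibia HZ (-2.14 ± 0.27, adjusted p = 5.1e-07), with no overlap. Igf2, a growth factor of early life, had 26053, 13095, 11141, 27085 and 105176 in the phalanx HZ and 77218, 54306, 78372, 56527 and 55796 in the tibia HZ (-1.32 ± 0.47, adjusted p = 0.0499). That value lay at the threshold, and the call ended when any library other than phalanx replicate 5 was left out (adjusted p of 0.057 to 0.15) and in the 10 libraries alone (adjusted p = 0.24). The binding proteins Igfbp4 (0.49 ± 0.33), Igfbp5 (0.56 ± 0.64) and Igfbp7 (0.61 ± 0.30) did not pass (adjusted p = 0.31, 0.59 and 0.17). The receptor that clears Igf2, Igf2r, was higher (1.03 ± 0.15). Among 18 growth hormone and Jak-Stat genes 2 were higher, the cytokine receptors Lifr (1.18 ± 0.14) and Osmr (1.51 ± 0.27), and 2 lower, among them the kinase gene Pim1 (-2.94 ± 0.45). Without phalanx replicate 5 the count of this list was 4 higher and 2 lower.

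Of 20 thyroid, retinoid and steroid hormone genes 8 were lower and 1 higher, although their median was -0.02 and the counts became 7 and 7 with counts scaled to the reads outside Rn45s. Dio2, the deiodinase that activates thyroid hormone, had 51, 33, 98, 2 and 32 normalized counts in the phalanx HZ and 672, 577, 590, 517 and 980 in the tibia HZ (-4.50 ± 0.52, adjusted p = 1.4e-07). Aldh1a3, an enzyme that makes retinoic acid, had 1229, 742, 856, 1873 and 1560 in the phalanx HZ and 23927, 16569, 13515, 11978 and 25588 in the tibia HZ (-3.89 ± 0.48, adjusted p = 3.4e-06). The 2 groups lay far apart for both. Hr, a corepressor of the thyroid hormone receptor, was lower too (-3.27 ± 0.46).

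Cells of growth plate cartilage use glycolysis, and many genes of the response to low oxygen carry the letters ACGTG, the core that Hif factors bind. Of 41 hypoxia and glycolysis genes 16 were lower in the phalanx HZ and 2 higher (median -0.50), or 10 lower and 8 higher with counts scaled to the reads outside Rn45s (median -0.11, beside 0.51 for all genes), and 9 were lower with the 10 libraries alone. Slc2a1, the main glucose transporter of chondrocytes, had 498, 278, 302, 609 and 749 normalized counts in the phalanx HZ and 3373, 2994, 3703, 1644 and 5575 in the tibia HZ (-2.82 ± 0.28, adjusted p = 2.1e-08). The carbonic anhydrase gene Car12 (-3.85 ± 0.52) and the adenylate kinase gene Ak4 (-2.28 ± 0.27) fell too, and neither these nor Slc2a1 overlapped between the bones. ACGTG, on either strand, was present in the promoter window of 21.8% of genes that have one and of 26 of the 36 list members that have one, in 10 of the 15 that were lower and 16 of the other 21. A match is again a description, and no binding was measured. The windows of Slc2a1 (chr4:119108495-119108794, plus strand) and Ak4 (chr4:101419453-101419752, plus strand) are shown as 2 of the members with the smallest adjusted p that hold the letters, from 250 bases before to 50 after the RefSeq start on GRCm38.p6. Capitals mark ACGTG, and in Ak4 the letters CACGTG, which span overlapping matches on both strands.
Slc2a1: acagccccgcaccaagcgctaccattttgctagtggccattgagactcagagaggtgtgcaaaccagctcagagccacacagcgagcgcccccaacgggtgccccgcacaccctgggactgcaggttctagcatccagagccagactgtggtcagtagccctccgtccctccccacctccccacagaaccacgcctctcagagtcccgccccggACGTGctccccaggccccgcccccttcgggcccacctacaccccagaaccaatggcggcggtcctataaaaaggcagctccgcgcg
Ak4: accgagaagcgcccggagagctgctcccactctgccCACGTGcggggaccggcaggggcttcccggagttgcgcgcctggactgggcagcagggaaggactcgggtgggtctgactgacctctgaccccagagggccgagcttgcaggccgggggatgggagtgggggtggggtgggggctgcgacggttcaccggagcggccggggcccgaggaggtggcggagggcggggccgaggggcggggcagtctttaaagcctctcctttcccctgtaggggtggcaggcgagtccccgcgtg

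Cholesterol synthesis was mostly lower in the phalanx HZ. Of 27 genes of synthesis and of its Srebp control 18 were lower and 1 higher (median -1.26), 15 were lower with the 10 libraries alone, and 17 with counts scaled to the reads outside Rn45s. Msmo1, a sterol oxidase, had 117, 90, 175, 130 and 58 normalized counts in the phalanx HZ and 429, 343, 1077, 536 and 515 in the tibia HZ (-2.31 ± 0.26, adjusted p = 8.5e-08). Its groups did not overlap, and Mvd (-2.35 ± 0.29) and Sqle (-1.59 ± 0.20), enzymes of earlier steps, were lower in every phalanx library as well. Of the 19 members with a promoter window 18 hold CCAAT on either strand, the box bound by NF-Y (11 of 11 that were lower and 7 of the other 8), against 41.1% of genes, and 1 holds the sterol element written TCACNCCAC, against 1.44%. The windows of Hmgcs1 (chr13:119690101-119690400, plus strand), the member with the sterol element (log2 fold change -1.17), and Msmo1 (chr8:64733529-64733828, minus strand) are shown on GRCm38.p6 with RefSeq starts, chosen for holding these letters. Capitals mark CCAAT, which reads ATTGG where it lies on the other strand, and in Hmgcs1 also the sterol element.
Hmgcs1: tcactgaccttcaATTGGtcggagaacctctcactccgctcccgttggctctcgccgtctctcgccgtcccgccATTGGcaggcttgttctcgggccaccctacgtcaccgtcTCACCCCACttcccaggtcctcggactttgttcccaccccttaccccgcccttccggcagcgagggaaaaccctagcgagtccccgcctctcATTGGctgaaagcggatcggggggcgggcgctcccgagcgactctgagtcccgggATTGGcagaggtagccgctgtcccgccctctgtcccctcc
Msmo1: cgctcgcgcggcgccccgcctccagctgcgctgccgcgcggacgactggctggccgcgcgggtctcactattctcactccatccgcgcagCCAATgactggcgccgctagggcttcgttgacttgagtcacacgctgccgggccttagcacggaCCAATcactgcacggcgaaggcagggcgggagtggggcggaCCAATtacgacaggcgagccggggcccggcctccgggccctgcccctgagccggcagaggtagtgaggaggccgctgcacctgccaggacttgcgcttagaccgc

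Of 72 genes of the respiratory chain tested 22 were higher and 1 lower, with a median of 0.45 beside 0.13 for all genes. The number higher was 3 with the 10 libraries alone, 29 without phalanx replicate 5 and 54 with counts scaled to the reads outside Rn45s. Sdha, a subunit of succinate dehydrogenase, was among the 22 (0.75 ± 0.15, adjusted p = 0.00058). Of 78 ribosomal protein genes 10 were higher and 1 lower (median 0.25). The counts of the ribosomal genes were 1 and 0 with the 10 libraries alone, 8 and 3 without phalanx replicate 5, 21 and 0 after quantile normalization, and 64 and 0 with counts scaled to the reads outside Rn45s. Of 35 genes of DNA replication and mitosis 5 were higher and none lower (median 0.25), or 1 and 0 with the 10 libraries alone, including Rrm1, a subunit of ribonucleotide reductase (1.11 ± 0.22). Cdkn1c, the kinase inhibitor that holds hypertrophic cells out of the cycle, had 1438, 573, 546, 1829 and 2116 normalized counts in the phalanx HZ and 8397, 4868, 7849, 4578 and 11059 in the tibia HZ (-2.64 ± 0.33, adjusted p = 2.5e-06), without overlap. Of 14 genes of kinase inhibitors and D cyclins Cdkn1c was the only one lower, and 5 were higher, none of them with the 10 libraries alone. Of 29 genes of folding and secretion in the endoplasmic reticulum 7 were higher and 4 lower (median 0.16), or 2 and 0 with the 10 libraries alone, 12 and 3 after quantile normalization and 19 and 1 with counts scaled to the reads outside Rn45s.

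Imprinted genes and genes of acute stress that passed were lower more often than higher. Of 18 imprinted growth genes 8 were lower and 2 higher (median -0.65). Meg3, a maternally expressed noncoding RNA, had 279, 193, 215, 114 and 948 normalized counts in the phalanx HZ and 2635, 2459, 2439, 2520 and 1310 in the tibia HZ (-3.06 ± 0.39, adjusted p = 3.9e-06). The library highest in the phalanx and the library lowest in the tibia, both numbered 5, stood closest to each other. Of 29 immediate early and stress genes 8 were lower and 1 higher (median -0.49), or 5 and 4 with counts scaled to the reads outside Rn45s and 5 and 1 without phalanx replicate 5. Atf3, a stress-induced factor (-2.67 ± 0.52), and Gadd45b (-2.36 ± 0.36), a stress sensor, were lower, and Gadd45g, of the same family, was higher (2.00 ± 0.36).

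Among the genes with the smallest adjusted p in each direction were several that changed by a moderate amount. Utrn (chromosome 10, 12382188 to 12869365), the gene of utrophin, which links the cytoskeleton to the matrix, had 6583, 4941, 5335, 6727 and 8243 normalized counts in the phalanx HZ and 23738, 19476, 17023, 19132 and 18310 in the tibia HZ (-1.63 ± 0.11, adjusted p = 5.6e-13). D5Ertd579e (chromosome 5, 36600485 to 36696024), a gene of unknown role, had 1695, 1338, 1591, 2247 and 1563 in the phalanx HZ and 10968, 8020, 7274, 7176 and 8052 in the tibia HZ (-2.30 ± 0.15, adjusted p = 5.6e-13). No phalanx library reached a tibia library for either gene. Lifr, the receptor of leukemia inhibitory factor, had 5253, 4342, 5556, 3933 and 3997 in the phalanx HZ and 1672, 1898, 2189, 2412 and 1965 in the tibia HZ, a log2 fold change of 1.18 ± 0.14 (adjusted p = 1.2e-07). Ncam1, a cell adhesion molecule, had 2116, 2248, 2953, 1738 and 1548 in the phalanx HZ and 581, 844, 933, 957 and 574 in the tibia HZ (1.45 ± 0.17, adjusted p = 9.8e-08). Neither overlapped between the bones. Dnm3os, the host transcript of 2 microRNAs of skeletal mesenchyme, was higher as well (1.69 ± 0.19).

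The remaining genes with the largest changes and separated groups were mixed in role. Rtn4rl1, a Nogo receptor family member, ranged over 309 to 471 normalized counts in the phalanx HZ and 0 to 177 in the tibia HZ (log2 fold change 5.36). Chil1, a chitinase-like secreted protein, ranged over 347 to 537 in the phalanx HZ and 0 to 118 in the tibia HZ (5.13). Rgs5, a gene of pericytes, ranged over 44 to 219 in the phalanx HZ and 0 to 13 in the tibia HZ (4.60). Also higher were Icosl, an immune ligand (4.13), and Cap2, an actin regulator (3.90). On the lower side stood Clic3, of the chloride channel family, with 0 to 5 in the phalanx HZ and 43 to 204 in the tibia HZ (-5.90). Catsper4, named for a sperm ion channel, had 0 to 13 in the phalanx HZ and 49 to 245 in the tibia HZ (-5.35), and Odf3l1 fell too (-5.12). Each of these 8 genes was called with the 10 libraries alone as well.

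**Figure D4:**
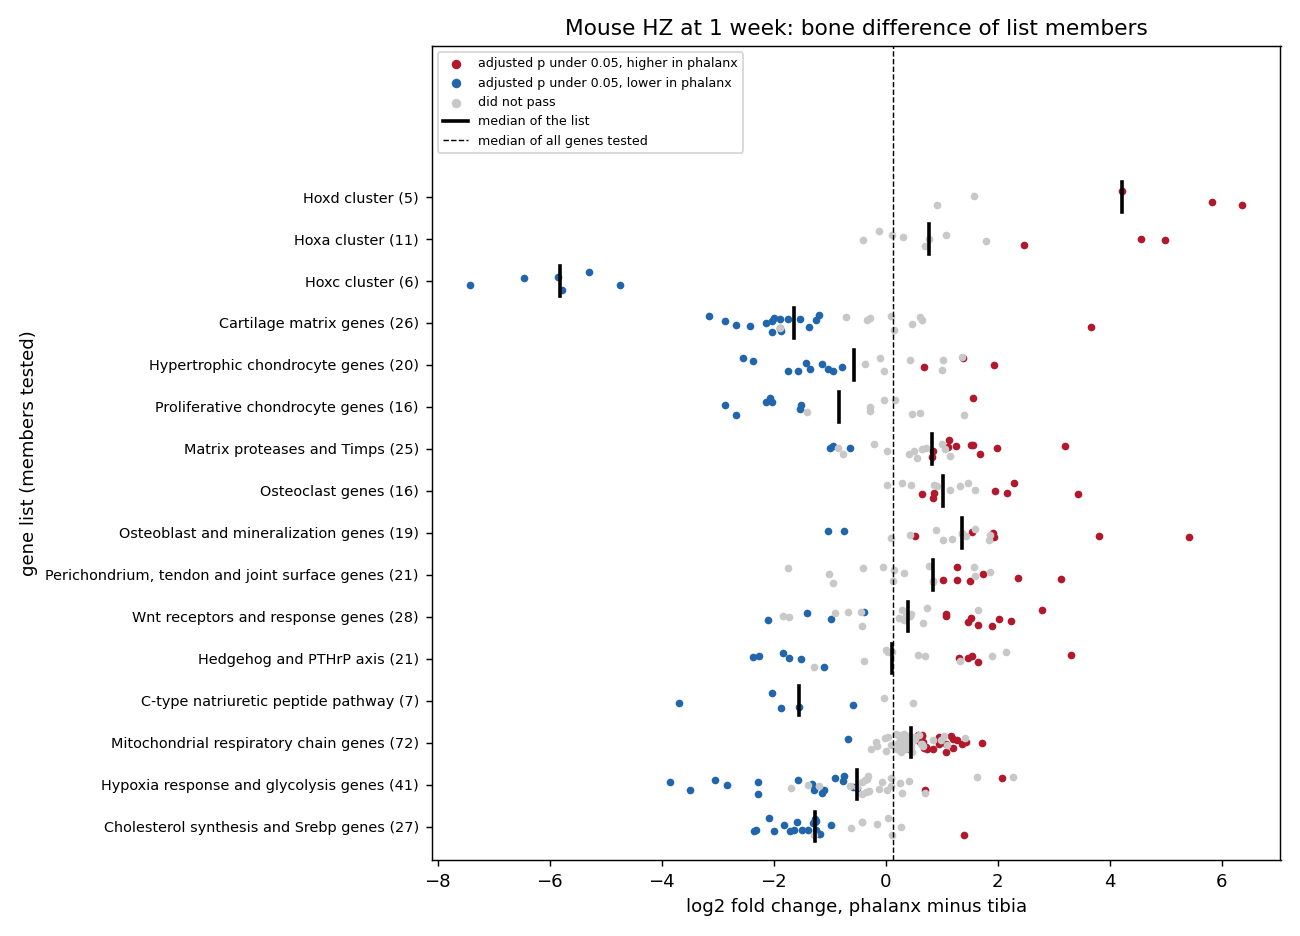
Log2 fold changes (phalanx minus tibia HZ, horizontal axis) of the tested members of 16 gene lists (vertical axis, with the number tested). Red points passed as higher and blue as lower in the phalanx HZ at an adjusted p under 0.05, grey points did not pass, black bars are list medians and the dashed line is the median of all genes (0.13). The medians run from 4.21 for the Hoxd cluster to -5.81 for the Hoxc cluster, with osteoclast genes at 1.03, cholesterol genes at -1.26 and cartilage matrix genes at -1.63.

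The same bones of Sprague Dawley rats 1 week old gave a second measurement of the zone. The rat phalanx HZ held 17042936 to 22633016 reads in genes and the rat tibia HZ 7805361 to 11050145 reads, in 5 libraries each. Among 10363 genes tested in both species under the same symbol, 1376 were called higher in the rat phalanx HZ (13.3%) and 913 lower (8.81%). Of the 687 genes called higher in the mouse and tested in the rat, 226 were called higher in the rat too (32.9% of the mouse list and 16.4% of the rat list), and 28 were called lower there. Of the 547 called lower in the mouse, 220 were called lower in the rat (40.2% of the mouse list and 24.1% of the rat list) and 14 higher. With the 10 mouse libraries fitted alone, 127 genes were shared in the higher direction.

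Patterning genes led the calls shared by the species. Shox2 had 2, 5, 4, 6 and 2 normalized counts in the rat phalanx HZ and 890, 722, 979, 505 and 562 in the rat tibia HZ, a log2 fold change of -7.28 ± 0.37. Hoxd13 was listed at 452, 623, 325, 569 and 708 in the rat phalanx HZ and at 3, 0, 0, 0 and 3 in the rat tibia HZ (8.18 ± 0.61). Tbx5 (7.43), Hoxd10 (5.72), Lhx2 (5.23) and Lamc3, a laminin chain gene (6.79, and 3.57 in the mouse), were higher in the rat phalanx HZ, and Hoxc4 (-5.88), Hoxc8 (-6.04), Hoxc9 (-4.15) and Pitx1 (-5.28) lower. Of the genes considered for description that passed in the mouse, 122 were tested in the rat, where 90 passed in the same direction, 4 in the other and 28 did not pass. Some of them were named because both species called them in the same direction, so these counts do not estimate agreement over all genes. Hhip (3.34), Ptch1 (1.33), Slc2a1 (-1.85), Car12 (-3.87), Has2 (-2.36), Dio2 (-1.96), Utrn (-1.02) and Smoc2 (-2.77) passed in the rat in the direction of the mouse. Rspo3 was higher in the mouse and lower in the rat phalanx HZ (-2.79), and Smad9 was lower in the mouse and higher in the rat (2.37). Hpse (-0.45, adjusted p = 0.34), Axin2 (-0.36, adjusted p = 0.48), Alpl (-0.40, adjusted p = 0.25) and Bmp2 (-0.55, adjusted p = 0.14) did not pass in the rat. Among lists, 14 of 22 cartilage matrix genes, 21 of 33 hypoxia and glycolysis genes and 15 of 26 cholesterol genes were lower in the rat phalanx HZ, and 10 of 13 osteoclast genes were higher, where 2111 of the 10363 genes were higher (20.4%) and 1728 lower (16.7%) by the same rule. Not every list followed the mouse. Of 25 folding and secretion genes 13 were lower and 2 higher in the rat, and of 11 B lymphocyte genes 5 were higher and 0 lower. Of 16 hypertrophic chondrocyte genes 6 were lower and 4 higher in the rat.

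**Figure D5:**
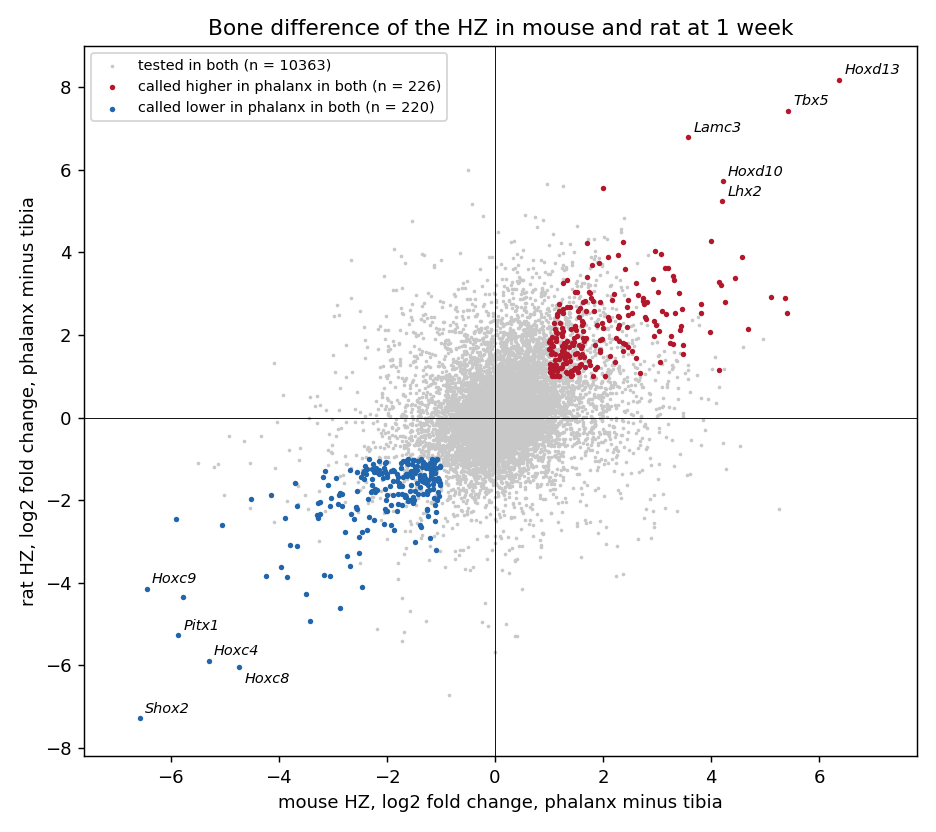
Log2 fold change of phalanx minus tibia HZ in the mouse (horizontal axis) and the rat (vertical axis) for 10363 genes tested in both. Red points are the 226 genes called higher in the phalanx HZ of both species, blue points the 220 called lower in both. Hoxd13, Tbx5 and Lamc3 lie farthest out above and Shox2 farthest out below.

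The neighbouring PZ of the same bones (4 phalanx and 5 tibia libraries in the mouse) gave the same comparison beside the HZ. The difference between bones differed between the zones for 1609 genes (10.6% of genes tested), among them 307 of the genes called higher and 397 of those called lower in the HZ. Genes picked for a large HZ change pass this term more readily, since it contains that change. PZ and HZ libraries were taken as independent, although animals may be shared. Patterning genes differed in both zones, some with unequal fitted changes. Shox2 changed by -6.57 in the HZ and -8.10 in the PZ on the log2 scale, and Hoxd13 by 6.36 and 8.32, differences between zones that did not pass (adjusted p = 0.27 and 0.31). For Hhip the values were 3.31 in the HZ and 2.86 in the PZ, and for Pitx1 -5.86 and -7.93, which did not pass either (adjusted p = 0.56 and 0.11). The zone difference passed for Tbx5 (5.42 in the HZ and 9.39 in the PZ, adjusted p = 0.025), Hoxd10 (4.21 and 7.53, adjusted p = 0.036) and Hoxc8 (-4.74 and -7.58, adjusted p = 0.012), each with a smaller fitted change in the HZ. In the HZ the lower bone held 2 reads of Hoxc8 (phalanx) and 2 of Hoxd10 (tibia), and Tbx5 had a tibia median of 0. The fitted sizes therefore also depend on the level in the other bone and on the 1 added to each count.

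Utrn changed by -1.63 in the HZ and -0.06 in the PZ (zone difference -1.57 ± 0.15, adjusted p = 4e-08), and D5Ertd579e by -2.30 and -0.03. Alpl was lower in the phalanx HZ and higher in the phalanx PZ (1.07, zone difference -2.09 ± 0.27, adjusted p = 4.1e-06). Npr3 had the widest zone difference of the list members named here, chosen after its values were seen. It was 54 to 141 in the phalanx HZ against 839 to 1581 in the tibia HZ, and 57, 97, 75 and 158 in the phalanx PZ against 0, 0, 5, 0 and 6 in the tibia PZ (zone difference -9.15 ± 0.99, adjusted p = 1.4e-07). Of these 4 groups the tibia HZ was the high one and the tibia PZ was at or near 0. By the adjusted p alone 283 of the 15213 genes were lower in the phalanx PZ (1.86%), among them 1 of 27 cholesterol genes and 21 of 41 hypoxia and glycolysis genes.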

How the data were processed

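Growth plates of male C57BL/6 mice and of rats were cut by laser capture, and the RNA of each animal was amplified, sequenced in pairs of 50 bases and aligned to mm10 or rn6 with STAR 2.4.2. Reads per gene were counted with featureCounts 1.4.6 and normalized by the relative log expression method. The annotation release and the use of strand in counting are not given in the sources used here. The deposited values are log2 normalized counts, and the table was turned back into normalized counts here. Whole reads, recovered from the steps of these values, gave the depth and the floors. The design had assumed linear normalized counts, and the test stayed the same. All columns were matched to samples. Symbols turned into dates (26 mouse, 27 rat) and 2 rat rows without a symbol were dropped, and of 215 second rat entries of a symbol the entry with the higher mean was kept.

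log2(normalized count + 1) was fitted with limma 3.58.1 in R 4.3.3 (trend, robust, statmod 1.5.0) over 6 mouse groups: HZ and PZ of 1-week phalanx, 1-week tibia and 4-week tibia. Genes that reached a normalized count of 10 in 5 or more libraries were tested, with Benjamini-Hochberg adjusted p-values. The rat was fitted in the same way. The named genes are the 12 largest separated changes in each direction with a mean of at least 100 in the higher group, the 5 smallest adjusted p in each direction, genes the study names between bones, first markers of cell types, the leading members of 48 lists, and the 5 largest shared changes of both species in each direction. The members and lists were chosen with earlier results of these data known. Alternatives were other filters, pseudocounts, scalings, weights, voom, the 10 libraries alone, a replicate block and leaving out each library. Scripts were tested on simulated data with 200 changed genes. Coordinates are from GENCODE M21 and promoters from RefSeq, both on GRCm38. Figures were drawn with matplotlib 3.10.9. A few genes of the lists are not reported here by name.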

Additional observations from a re-analysis of the deposited data

Results flagged for a closer look

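Of 121 groups of 5 values tested, 29 held a library far from the 4 others by Dixon's criterion. For normal values chance gives about 1 in 20 (6.0). The counts were not logged, and the list sums contain genes also tested singly, so chance may give more than that. Phalanx HZ replicate 5 was the library in 12 of the 29. It was high for Sox9 (4584 normalized counts), Col2a1 (840779), Acan (85378), Prelp (29103), Ucma (2062), Ptch1 (14263), Gli1 (1715), Irs2 (462), Igf2 (105176) and Meg3 (948). It was also high for the summed level of cartilage matrix genes (1357859) and of proliferative chondrocyte genes (941448). Phalanx HZ replicate 2 was high for Mpo (726) and for the summed neutrophil (4045) and B lymphocyte genes (1928).

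Tibia HZ replicate 3 was high in 7 groups, with Shox2 at 1066, Hoxc9 at 260, Hoxd13 at 23, Col1a1 at 125986, Msmo1 at 1077, summed osteoblast genes at 397514 and summed perichondrium, tendon and joint surface genes at 141281. Tibia HZ replicate 1 was high for Irs2 (1488), Mpo (6141), D5Ertd579e (10968) and summed B lymphocyte genes (2635). Tibia HZ replicate 5 was high for Col10a1 (416302) and summed hypertrophic chondrocyte genes (696404) and low for Meg3 (1310).

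The difference between phalanx and tibia was not the same in the HZ and the PZ for 78 of the 170 genes considered for description, by the zone term of the limma fit at an adjusted p under 0.05. Among 81 of them, those with the largest changes or smallest adjusted p, those the study names between bones, the first markers of cell types, the genes shared with the rat, and Npr3, it differed for 25. Over all genes tested the share was 10.6%. Many of the genes here were picked for their HZ change, which is part of the zone term, and this raises their share. The values below are the log2 fold change in the HZ minus that in the PZ. It was above 0 for 8 genes, Hoxc8 (2.84), Scx (3.68), Bmper (2.79), Wnt4 (1.76), Ncam1 (1.36), Dnm3os (1.45), Icosl (3.63) and Cap2 (4.14). It was below 0 for Hoxd10 (-3.32), Tbx5 (-3.97), Alpl (-2.09), Vegfa (-1.51), Bmp2 (-2.06), Bmp6 (-2.23), Col2a1 (-1.83), Acan (-1.81), Hpse (-4.38) and Smoc2 (-0.91). The others below 0 were Dkk3 (-4.21), Npr3 (-9.15), Panx2 (-4.53), Utrn (-1.57), D5Ertd579e (-2.27), Clic3 (-3.23) and Catsper4 (-4.86).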

How the results depend on the processing

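Against 1024 genes called higher and 776 called lower in the phalanx HZ, the 10 libraries alone called 347 higher and 482 lower, and with a replicate block 327 and 481. The labels do not say whether phalanx and tibia libraries of the same number share an animal. The correlations of same-numbered libraries were -0.049 to 0.047 and 1 of 5 was best with its own number. Low correlations cannot decide this, since the variation of each capture may hide that of the animal. Counts scaled to the reads outside Rn45s called 2458 higher and 463 lower, array weights 465 higher, and the 10 libraries alone without phalanx replicate 5, chosen after seeing the data, 478 higher. Shared with the rat in the higher direction were 127 genes with the 10 libraries alone, against 226. Leaving out 1 library gave 824 (without phalanx replicate 3) to 1227 (without phalanx replicate 5) genes higher and 676 to 890 lower. The log2 fold change of Adamts4 turned to 0.18 with scaling outside Rn45s and 0.066 with array weights, and ranged from -0.45 to 0.18 (without phalanx replicate 5, also with the 10 libraries alone) as libraries were left out. That of Dkk3 ranged from -0.73 to 0.087 (without phalanx replicate 5, in both fits), and that of Wnt5a turned to 0.09 with scaling outside Rn45s. None of the 3 passed in any of these, and the cause was not tested. Of 159 named genes 135 kept direction and side of the threshold with the 10 libraries alone and 23 no longer passed.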
